A study of Morchella importuna with 4 samples.

Results

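The genes described here encode the core histones, the centromeric histone and a few further proteins with a histone fold in *Morchella importuna*, a cultivated black morel. They were chosen by text: an expression table of 11599 genes was searched for descriptions naming histone H1, H2A, H2B, H3 or H4, centromeric H3 or a histone fold, and modifying enzymes, chaperones and transcription factors were left out. The search kept 11 genes, of which 8 name a histone in either of their descriptions and 3 carry the histone-fold annotation alone. By type the 8 are 2 H2A genes, 1 of them the variant H2A.Z, 1 H2B gene, 1 H3 gene, 1 centromeric H3 gene and 3 H4 genes. No description matched a linker histone H1. Another 6 genes matched the search and were dropped because their descriptions also name a methyltransferase or a transcription factor.

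The compared samples were taken from plates of 1 strain grown on potato dextrose agar at 20 °C, at the stage when sclerotia, compact survival bodies of packed hyphae, begin to form. The SII group is the dense central area of the plate, labelled sclerotium, and the SIO group is the surrounding area of vegetative hyphae. Each area is represented by 2 libraries, and material of 2 plates was pooled into each library. The authors compared areas of the same plate, so libraries of the 2 areas may share plates, and the main test did not pair them. No treatment, transgene or deletion was used, so the groups differ by the position of the mycelium on the plate, and age, density and cell type of the mycelium cannot be told apart as sources of a difference.

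Nuclear DNA is wrapped around an octamer built from H2A-H2B dimers and an H3-H4 tetramer, and each round of DNA replication needs a new supply of these proteins. In budding yeast and in animals, core histone messages accumulate mainly in S phase, and in fungi they are polyadenylated like other messages. Variant histones such as H2A.Z and the centromeric H3 replace their core counterparts at particular places, the former around the starts of genes and the latter where the kinetochore is built.

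Recovered read totals were between 23108142 and 27992918 per library, and a histone or histone-fold gene held between 462 and 151200 reads in a library. The values compared are FPKM, mapped fragments scaled by gene model length and by library size, and their sum over all genes was 919062 and 921729 in the SII libraries against 795743 and 797690 in the SIO libraries. The libraries of SII differed from each other more than those of SIO, with a standard deviation (SD) of the log2 difference across genes of 0.68 against 0.23. A gene was called higher or lower when limma, fitted to log2(FPKM + 1) of the 8906 genes that reached 1 FPKM in 2 or more libraries, gave a Benjamini-Hochberg adjusted p under 0.01 and a log2 fold change of at least 1 in size. Fold changes are therefore on the log2(FPKM + 1) scale, and the labels do not say more of how far the libraries of an area were separate cultures than that pairs of plates were pooled.

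All 11 genes passed the filter on low values. Of these, 8 were called higher in SII, none was called lower and 3 were not called. Over all genes tested, 10.3% were called higher (914 genes) and 12.2% were called lower (1084 genes). The split between higher and lower calls moved with scaling, to 981 and 743 genes under median-ratio scaling and to 774 and 1528 genes after rescaling every library to the same FPKM sum, whereas the histone calls stayed at 8 and 0 under both. Both SII libraries lay above both SIO libraries for 10 of the 11 histone genes, and the same held for 35.6% of all genes tested. The median log2 fold change of the 11 genes was 1.82, and that of all genes tested was -0.11. The 8 called genes had log2 fold changes from 1.46 to 2.69, with limma adjusted p-values from 0.00268 to 0.00533. No gene fell. At an unadjusted p under 0.05 in limma the counts were 10 higher and 0 lower, a mark that 5210 of the 8906 genes tested met. Limma-voom on the recovered reads called 8 higher and 0 lower, against 884 higher and 1096 lower of the 8905 genes it tested. The calls did not hold when SIO library 1 or SIO library 2 was left out. That left 1 library in the SIO area, so the spread came from the SII libraries, which differed more from each other. Few genes of the whole table were then called. The fold changes stayed close to those given. For H2A (JGI 539132) the log2 fold change was 2.65 without SIO library 1 and 2.73 without SIO library 2. In bulk samples, a larger share of cells that express a gene and more of its RNA per cell cannot be told apart.

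**Figure D1:**
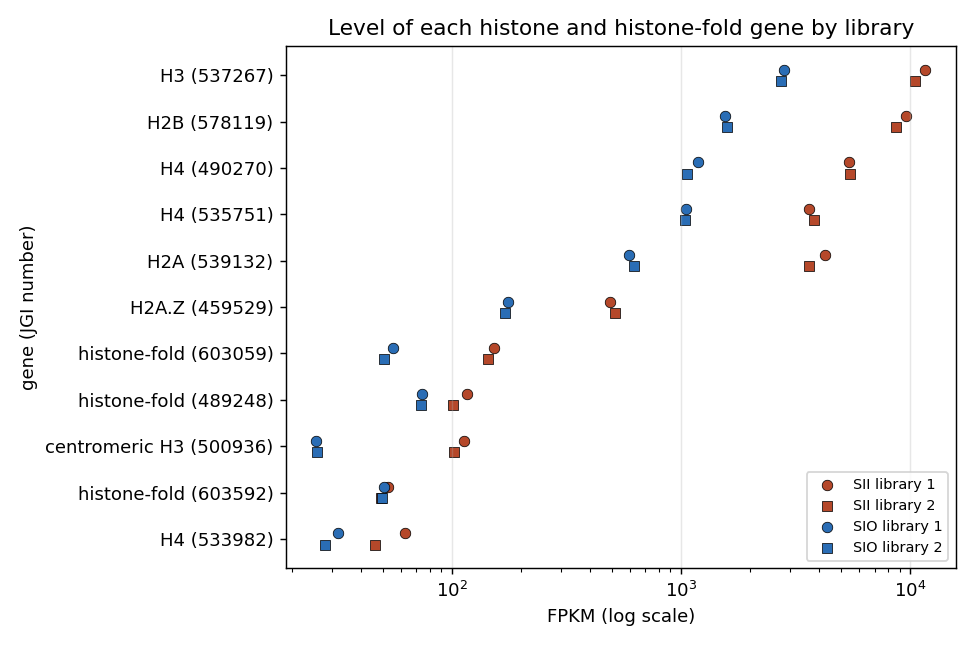
FPKM of each of the 11 histone and histone-fold genes in each library, on a log axis, with SII libraries in red and SIO libraries in blue. The 5 abundant core histone genes lie to the right of the others in every library, and only the gene JGI 603592 has SII and SIO points that overlap.

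The H2A gene JGI 539132 and the H2B gene JGI 578119 supply the outer dimers of the nucleosome and had the largest changes of the set. H2A was at 4266 and 3619 FPKM in the SII libraries and at 591 and 627 FPKM in the SIO libraries. Its means were 3942 ± 457 and 609 ± 25.6 (SD, n = 2 each), a ratio of means of 6.48 and a log2 fold change of 2.69 with a standard error (SE) of 0.19 (limma adjusted p = 0.00268). The gap between areas was several times the spread within either of them, and the gene moved from rank 218 and 205 of all genes by FPKM in SIO to rank 26 and 31 in SII. H2B was at 9599 and 8691 FPKM in SII and at 1554 and 1590 FPKM in SIO. The mean levels of 9145 ± 642 and 1572 ± 24.8 FPKM (SD, n = 2 each) gave a ratio of 5.82 and a log2 fold change of 2.54 (SE 0.21, limma adjusted p = 0.00336). With these levels H2B was the fifth most abundant message in both SII libraries and stood at rank 53 and 51 in SIO. The pair carries the consecutive gene numbers 11301 and 11302 in the table. In budding yeast, H2A and H2B genes lie side by side and are transcribed from a shared promoter; coordinates were not used here, so the arrangement of the morel genes was not examined.

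Histone H3 and H4 form the inner tetramer of the nucleosome. The H3 gene JGI 537267 was the most abundant of all histone genes in every library, at 11627 and 10524 FPKM in SII and at 2813 and 2725 FPKM in SIO. It was the fourth most abundant message of the whole table in both SII libraries, and its rank in SIO was 21 and 25. Its ratio of means was 4.0, from 11076 ± 780 to 2769 ± 62.4 FPKM (SD, n = 2 each), with a log2 fold change of 2.0 (SE 0.22, limma adjusted p = 0.00533). The areas did not overlap, and the change lay between those of the abundant H4 genes JGI 490270 and JGI 535751. Under quantile normalization the log2 fold change of H3 was 1.35, which still passed the threshold (limma adjusted p = 0.00999). With library number added to the fit (the replicate block), the H3 call was lost (limma adjusted p = 0.0134).

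H4 was represented by 3 genes, which differed widely in level. JGI 490270 was at 5388 and 5450 FPKM in SII and at 1187 and 1061 FPKM in SIO, and JGI 535751, described as H4.1, was at 3615 and 3814 FPKM in SII and at 1057 and 1039 FPKM in SIO. Neither gene had overlapping libraries. The log2 fold changes were 2.27 (SE 0.19, limma adjusted p = 0.00355) for JGI 490270 and 1.82 (SE 0.18, limma adjusted p = 0.00441) for JGI 535751. Under quantile normalization that of JGI 490270 was 1.63 and still called. The order of these H4 genes depends on the length of their models: JGI 490270, with a model of 264 bases, held 35642 and 33560 reads in SII, whereas JGI 535751, with a model of 716 bases, held 64846 and 63693. The model of JGI 490270 is shorter than a full H4 coding sequence, so its FPKM level next to other genes is uncertain, while a ratio between the areas does not depend on the length. The gene number of JGI 490270, 8477, lies near that of H3, 8479.

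The third H4 gene, JGI 533982, was at a small fraction of these levels, with 62.7 and 46.5 FPKM in SII and 31.9 and 28.0 FPKM in SIO. All SII values were above the SIO values, but the SII libraries differed from each other by more than the lower of them differed from the higher SIO library. Its log2 fold change of 0.83 (SE 0.21, limma adjusted p = 0.0322) did not pass the threshold. The size of the change depended on the SII library kept: the log2 fold change was 1.05 without SII library 2 and 0.62 without SII library 1. H4 is among the most conserved proteins known, and reads shared by near-identical copies could be split among the H4 genes in the authors' counting, so the level of each single H4 gene is uncertain.

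**Figure D2:**
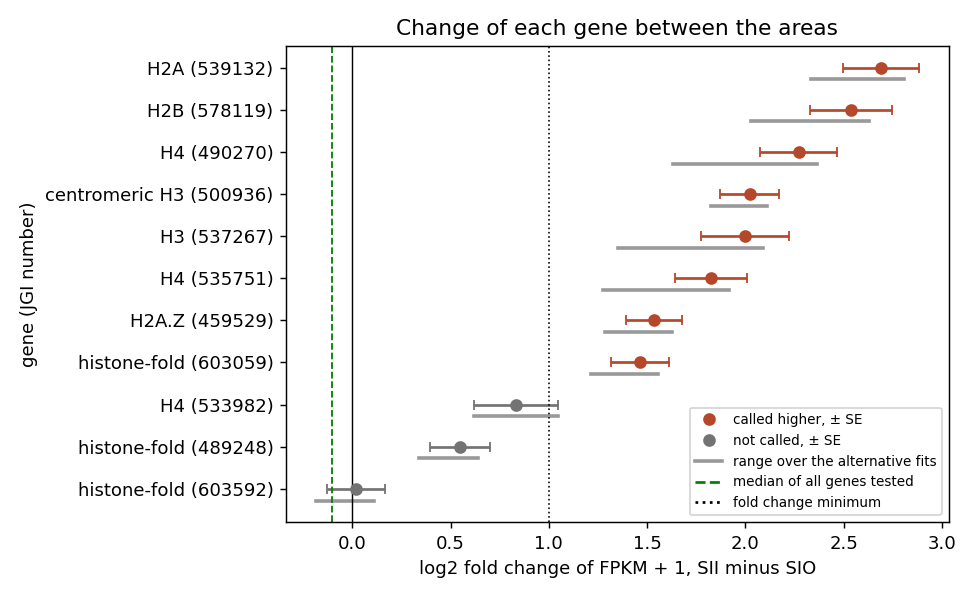
Log2 fold change of FPKM + 1 (SII minus SIO) of each of the 11 genes, with bars for ± SE and grey lines for the range over the alternative fits. The 8 called genes lie between 1.46 and 2.69, right of the dotted fold change minimum of 1, and the dashed line marks the median of all genes tested at -0.11.

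The variant histones rose as well, from lower levels. The H2A.Z gene JGI 459529, whose product marks nucleosomes next to gene starts and is made throughout the cell cycle in animals, was at 491 and 516 FPKM in SII and at 175 and 171 FPKM in SIO. Its log2 fold change was 1.53 (SE 0.14, limma adjusted p = 0.00404), the smallest of the called genes that name a histone. The centromeric H3 gene JGI 500936, described as cse-4 after the yeast protein that founds the kinetochore, was at 113 and 102 FPKM in SII and at 25.7 and 25.8 FPKM in SIO. Neither variant had overlapping areas. The centromeric H3 gene had a log2 fold change of 2.02 (SE 0.15, limma adjusted p = 0.00286), next to 2.0 for the core H3 gene, although its FPKM was under 1% of that of H3 in each library.

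The remaining 3 genes are known only by the histone-fold annotation, a structural motif shared by histones and several subunits of transcription complexes, so their roles are not given. JGI 603059, a hypothetical protein with a model of 328 bases, was at 152 and 144 FPKM in SII and at 55.5 and 50.7 FPKM in SIO, and was called higher with a log2 fold change of 1.46 (SE 0.15, limma adjusted p = 0.00449). JGI 489248 was at 116 and 102 FPKM in SII against 74.4 and 73.6 FPKM in SIO, a log2 fold change of 0.55 that was not called (limma adjusted p = 0.0400). JGI 603592 had the same level in both areas within its spread, with 52.7 and 49.2 FPKM in SII and 50.7 and 49.6 FPKM in SIO. For this gene the libraries overlapped and the log2 fold change of 0.02 (limma adjusted p = 0.919) changed sign under 3 of the 16 alternative fits. The histone-fold annotation alone thus covered 1 gene that rose and 2 that were not called.

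The table also holds the authors' mean of scaled read counts per area. Its values for SIO imply 3 libraries, of which 2 have FPKM columns, and the third was not analysed here. For 10 of the 11 genes that mean was between 0.966 and 1.10 times the mean of the 2 libraries used here. These 2 libraries are part of that mean, so the third library alone can differ from them by more. For JGI 489248 that mean was 1.56 times as high, so the level of this gene in the SIO area was higher in the authors' mean than in the libraries compared. The authors' mean SII value of that gene was 2714 scaled reads, next to an SIO mean of 2767.

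**Figure D3:**
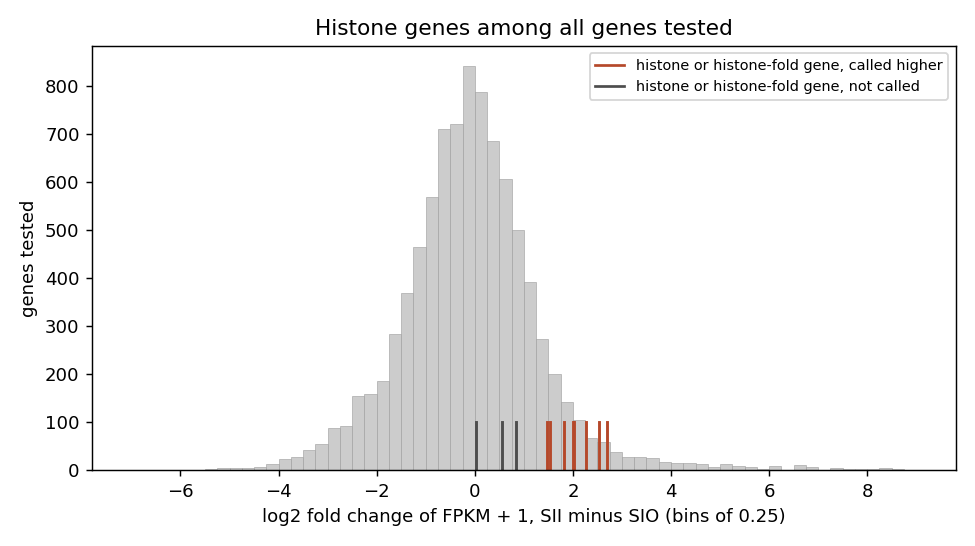
Number of genes tested per bin of log2 fold change of FPKM + 1 (SII minus SIO), with the 11 histone and histone-fold genes marked by lines. The called genes lie in the upper tail, between the 90.2 and the 96.9 percentile of all genes tested, and JGI 603592 lies at the 55.0 percentile.

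A nucleosome takes equal numbers of each core histone, and ratios between genes of 1 library do not depend on how libraries are scaled to each other. H2A was at 44.4% and 41.6% of the FPKM of H2B in SII and at 38.0% and 39.4% in SIO. On the log2 scale the means differed by 0.15, without overlap. The model of H2A has 809 bases and that of H2B 417. Reads were closer, at 86470 and 68290 for H2A and 100293 and 84533 for H2B in SII. The level of such ratios therefore depends on model length, whereas the change of a ratio between 2 single genes does not. H3 was at 129% and 114% of the 2 abundant H4 genes summed in SII and at 125% and 130% in SIO, and here the areas overlapped (exact permutation test, two-sided, p = 0.667). With 2 libraries per area the smallest p that such a test allows is 0.333, so none of the ratios could reach 0.05.

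The dimer and tetramer genes did not keep the same proportion in both areas. H2A and H2B summed were at 67.2% and 62.2% of the FPKM of H3 and the 2 abundant H4 genes summed in SII, and at 42.4% and 45.9% in SIO. The log2 ratio was 0.55 higher in SII, a gap larger than the spread within either area (exact permutation test, two-sided, p = 0.333, the smallest possible). Between the abundant H4 genes, JGI 490270 was at 149% and 143% of JGI 535751 in SII and at 112% and 102% in SIO. This log2 ratio was 0.45 higher in SII, again without overlap, and it compares the areas at the same pair of model lengths.

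Core and variant histones also differed in proportion. H2A.Z stood at 11.5% and 14.3% of the FPKM of H2A in SII and at 29.7% and 27.3% in SIO, so the variant was lower relative to H2A in SII although its own level was higher there. The difference in log2 ratio was -1.15 (exact permutation test, two-sided, p = 0.333). The low H4 gene JGI 533982 showed a shift of similar size against the abundant H4 genes, at 0.697% and 0.502% of their sum in SII and 1.42% and 1.33% in SIO. The ratio of centromeric H3 to H3 differed less: it was 0.974% and 0.969% in SII and 0.913% and 0.946% in SIO, a log2 difference of only 0.06. These ratios have different denominators, with log2 fold changes of 2.69 for H2A and 2.0 for H3. The variants themselves changed by 1.53 (H2A.Z) and 2.02 (centromeric H3).

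**Figure D4:**
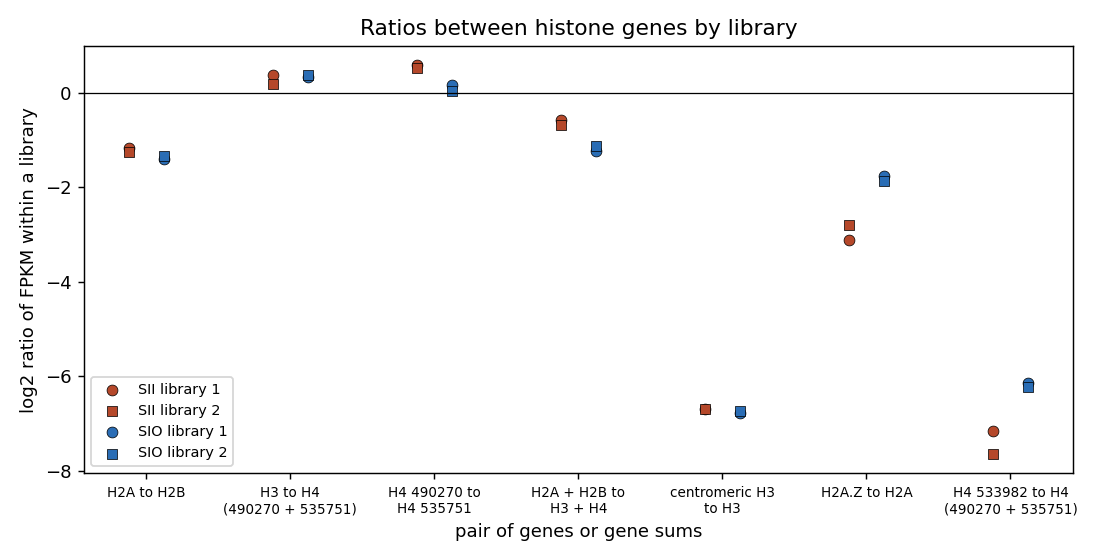
Log2 ratio of FPKM within each library for 7 pairs of genes or gene sums, with SII libraries in red and SIO libraries in blue. SII and SIO points are apart by 0.55 for the dimer to tetramer ratio and by -1.15 for H2A.Z to H2A, and overlap for H3 to H4.

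The 5 abundant core histone genes (H2A, H2B, H3 and the H4 genes JGI 490270 and JGI 535751) made up 3.75% and 3.48% of the summed FPKM in the SII libraries, against 0.905% and 0.883% in the SIO libraries. The means were 3.62% ± 0.192 and 0.894% ± 0.0158 (SD, n = 2 each). As a share of recovered reads, which counts a message by its length, all 11 genes held 1.82% and 1.69% in SII and 0.395% and 0.389% in SIO. On both scales the SII share was more than 3 times the SIO share. Within the set the 5 abundant genes took 97.2% and 97.1% of the FPKM in SII and 94.6% of it in both SIO libraries.

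DNA replication, which uses the new histones, was represented by 30 genes, all tested, with 4 called higher, 1 called lower and a median log2 fold change of 0.47. The most changed was the sliding clamp PCNA, JGI 604227, which holds the polymerase on DNA, at 166 and 174 FPKM in SII and at 45.2 and 43.8 FPKM in SIO (log2 fold change 1.91, limma adjusted p = 0.00282). RFA3 (JGI 602975), a subunit of the single-strand binding complex, rose with a log2 fold change of 1.44, and the origin recognition gene ORC2 (JGI 481810) and the helicase gene MCM7 (JGI 496170) rose with 1.24 each. Both the ORC2 and the MCM7 call were lost when library number was added to the fit (the replicate block). The ORC2 call was also lost after rescaling every library to the same FPKM sum. Thymidylate synthase, JGI 511429, the enzyme that makes the thymidine nucleotide for DNA, went the other way, from 21.5 and 21.4 FPKM in SIO to 9.34 and 8.10 FPKM in SII (log2 fold change -1.21, limma adjusted p = 0.00873). This call was lost under quantile normalization and with the replicate block. The share called higher, 13.3%, was near the 10.3% of all genes tested.

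Histone chaperones, which escort histones before they are assembled, were not called in either direction: 0 of 10 passed in limma and 0 in limma-voom. The shares over all genes tested were 10.3% higher and 12.2% lower, so 10 genes are too few to read the absence of calls as a trait. At an unadjusted p under 0.05 in limma there were 3 higher and 1 lower, a mark that 5210 of all 8906 genes met. Other alternatives did call some chaperones: 1 higher under median-ratio scaling, and 1 in each direction at an adjusted p under 0.05. Some were also called without SII library 1 or SII library 2, fits that called more genes of the whole table too. The median log2 fold change of the chaperones was 0.03. The nucleosome assembly protein gene JGI 524234, a carrier of H2A-H2B dimers, was at 178 and 290 FPKM in SII and at 547 and 582 FPKM in SIO, a log2 fold change of -1.31 that missed the threshold (limma adjusted p = 0.0197). Its libraries did not overlap, and the sign was opposite to that of the H2A and H2B genes. Asf1, JGI 483381, which carries H3-H4 dimers, was at 197 and 194 FPKM in SII and at 121 and 133 FPKM in SIO (log2 fold change 0.62, limma adjusted p = 0.0258).

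Kinetochore and centromere genes numbered 20, of which 12 passed the filter on low values, 1 was called higher and none lower, with a median log2 fold change of 0.28. The share called higher, 8.33% of those tested, was near the 10.3% of all genes. The called gene encodes the outer kinetochore subunit Spc24 (JGI 509200) and was at 89.7 and 79.3 FPKM in SII and at 20.3 and 21.7 FPKM in SIO (log2 fold change 1.96, limma adjusted p = 0.00336). Its change was close in size to that of the centromeric H3 gene, with a log2 fold change of 2.02. The DASH complex gene Dad4 (JGI 607528), also a kinetochore component, was at 40.6 and 41.0 FPKM in SII and at 56.3 and 60.3 FPKM in SIO and was not called.

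Other proteins with a histone fold, mostly TFIID subunits (TAFs) and CCAAT-binding factors, together with entries that share these annotation words, formed a list of 16 genes with 5 called higher, 1 called lower and a median log2 fold change of 0.66. The share called higher was 31.2%, against 10.3% of all genes tested. The 5 higher calls became 3 with the length trend removed and 3 with the replicate block. They also moved when 1 library was left out, as did the counts over all genes tested. The largest change was that of JGI 606964, at 65.3 and 42.0 FPKM in SII and at 8.02 and 11.97 FPKM in SIO (log2 fold change 2.30, limma adjusted p = 0.00746). Its homologue is described as an apoptosis-inducing TAF9-like domain 1 family protein. The gene is listed for that wording, and whether it is a TFIID subunit was not examined. Genes with a TFIID 18 kDa domain (JGI 537756, log2 fold change 1.53, and JGI 538482, log2 fold change 1.20), the CCAAT-binding subunit NF-Y beta (JGI 276676, 1.27) and TAF10 (JGI 492124, 1.22) were also called higher. JGI 538482 and JGI 276676 are among the 6 genes that the search for histones had dropped. The TATA-binding protein gene JGI 537491, which has no histone fold, was at 361 and 428 FPKM in SII and at 435 and 413 FPKM in SIO, with overlapping libraries. A poorly expressed TFIID gene, JGI 607773, was called lower at a log2 fold change of -1.31 (limma adjusted p = 0.00975), and this call was lost under 8 of the 15 alternatives in which the gene was tested, median-ratio scaling and quantile normalization among them.

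Among 22 histone-modifying enzymes, 21 were tested, with 1 called higher, 1 called lower and a median log2 fold change of 0.47. Both shares were 4.76%, against 10.3% and 12.2% of all genes tested. Each share is 1 gene, so 21 genes are too few to read the difference as a trait. The type B histone acetyltransferase JGI 511522, an enzyme that acetylates newly made H4 before assembly in yeast, was at 48.3 and 57.3 FPKM in SII and at 15.5 and 16.2 FPKM in SIO (log2 fold change 1.67, limma adjusted p = 0.00477). Its partner subunit JGI 538675 was at 86.4 and 86.5 FPKM in SII and at 47.9 and 41.6 FPKM in SIO, a log2 fold change of 0.94 that missed the threshold (limma adjusted p = 0.0109). The SIR2-family deacetylase gene JGI 561740 fell by 1.68 on the log2 scale, from 39.6 and 39.8 FPKM in SIO to 9.33 and 14.7 FPKM in SII (limma adjusted p = 0.00940), a call that was lost under 6 of 16 alternatives, including median-ratio scaling, quantile normalization and a pseudocount of 0.1. The class of deacetylase represented by Rpd3, JGI 521081, was at 87.9 and 78.4 FPKM in SII and at 71.6 and 66.5 FPKM in SIO and was not called.

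The related lists together held 11 genes called higher and 3 called lower of 91 tested, which is 12.1% and 3.30% against 10.3% and 12.2% of all genes tested. These counts moved when a single library was left out, which leaves 1 library in an area. The counts over all genes tested moved the same way, with more calls without SII library 2 and few without either SIO library. Genes of asexual sporulation, markers of other cells that a plate could hold, were low: the AbaA gene JGI 485047 was at 3.20 and 3.57 FPKM in SII and 5.06 and 6.40 FPKM in SIO, and the brlA gene JGI 485649 was at 2.51 and 2.28 FPKM in SII and 1.71 and 3.13 FPKM in SIO. The single hydrophobin gene found was listed at 0 FPKM in every library. Of these 3 genes, 2 were tested and 0 called in limma and in limma-voom, with 0 higher and 1 lower at an unadjusted p under 0.05. The part of such cells in the histone differences was not tested.

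**Figure D5:**
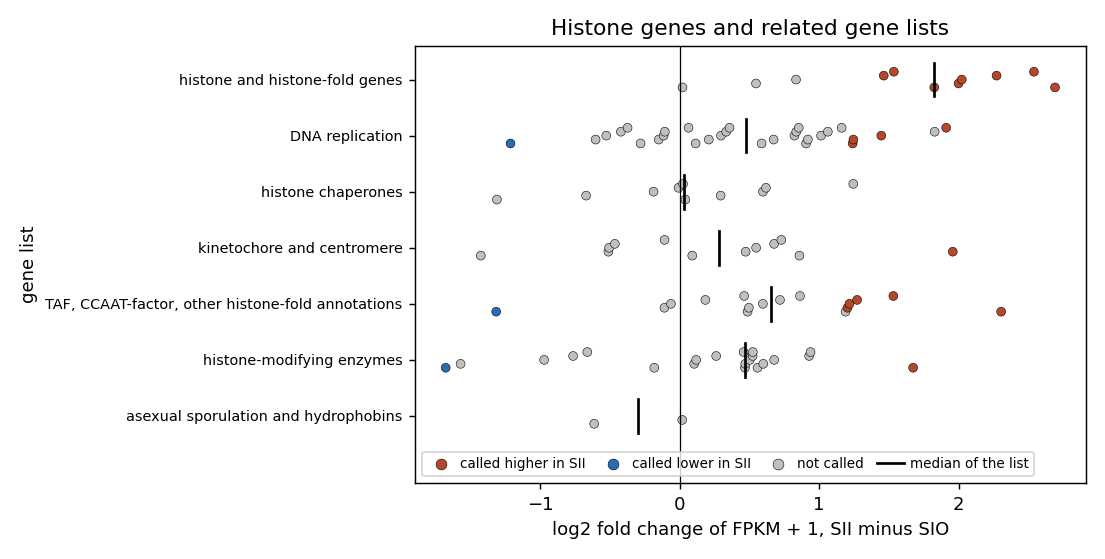
Log2 fold change of FPKM + 1 (SII minus SIO) of every tested gene of the histone set and of the 6 related lists, with called genes in color and a vertical bar at the median of each list. The histone median is at 1.82, and the medians of the related lists lie between -0.30 and 0.66.

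The pattern of the histone genes over the 4 libraries was compared with that of the 6373 genes of at least 10 FPKM on average, as the distance between log2 values centred on each gene's mean. The profile was the average of 6 histone genes: the 5 abundant core genes and the low H4 gene JGI 533982. The latter was not called and had a smaller log2 fold change of 0.83. The 5 closest genes were JGI 539719 and JGI 556939 (hypothetical proteins), JGI 479943 (Hrf1), JGI 602526 (a Yip1-domain protein) and JGI 527708 (a glycoside hydrolase). All 5 were called higher, with log2 fold changes from 1.98 to 2.02 and distances from 0.0604 to 0.106. JGI 556939 was the most abundant of them, at 2876 and 2595 FPKM in SII and at 669 and 703 FPKM in SIO. With 4 libraries in only 2 areas, likeness of this kind reflects mainly the size of the difference between areas.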

How the data were processed

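RNA was sequenced from 2 SII and 2 SIO libraries; per the labels, reads were aligned with TopHat2 2.1.0. The authors deposited 1 table with FPKM per library and mean scaled read counts per area (a signal, not whole counts). Columns with the authors' own fold changes and p-values were present and not used. Library numbers are those of the columns, which the labels tie to an area but not to 1 sample. Whole reads and gene model lengths were recovered from the FPKM and mean counts: every value was whole within 0.01 read, and 10439 lengths were whole within 0.05 base; 1160 genes without SII reads gave no length and are left out of SIO read totals. SIO mean counts were above 0 for 126 genes listed at 0 in both SIO libraries.

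FPKM values were tested with limma 3.58.1 in R 4.3.3 after log2(FPKM + 1) transformation, with the prior variance following the mean level, over the 8906 genes that reached 1 FPKM in 2 or more libraries, and with Benjamini-Hochberg adjustment. Calls needed an adjusted p under 0.01 and a log2 fold change of at least 1 in size. No count model was the main test, since FPKM are not counts. The fit was tested on simulated data. Ratios were compared with exact permutation tests. Alternatives covered the pseudocount, filter, scaling, trend, gene length, replicate block, limma-voom, thresholds and single libraries. The members and lists were chosen with earlier results of these data known. Named were every member, up to 4 called genes with the largest change and the 2 most abundant of each related list, and the 5 genes with the most similar pattern; other called list genes were named after their values were seen. None of the gene numbers matched the RefSeq gene table, so sequences and coordinates were not analysed here.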

Additional observations from a re-analysis of the deposited data

How the results depend on the processing

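The histone count of 8 called higher stayed between 7 and 9 under every alternative run except 3: without a filter on low values it was 0 (10 at an unadjusted p under 0.05, lowest adjusted p 0.0137), and over the fits without 1 library it ranged from 0 (without SIO library 1 or 2) to 9 (without SII library 2). Without the filter, 0 of all 11599 genes were called in either direction in limma, and 5305 met an unadjusted p under 0.05. The counts of 0 in that fit, for the histone genes and the related lists, were thus shared by the whole table. With the replicate block the histone count was 7: H3 (JGI 537267) was lost at an adjusted p of 0.0134. No other histone call changed under the block. The labels do not say which libraries share plates. With library numbers taken as 2 pairs, the correlation of their deviations was 0.20. Counting only genes whose descriptions name a histone gave 7. JGI 603592, at 0.02, went to -0.18 with values rescaled to a sum of 1000000 (chosen after seeing the data), to -0.058 with the length trend removed and to -0.028 without SII library 1 (0.069 without SII library 2). The median of all genes tested was -0.11, -0.02 under median-ratio scaling, -0.01 under quantile normalization and -0.30 with rescaled values. Of the related lists, the 11 genes higher became 8 with the replicate block (TAF and CCAAT-factor list, 5 to 3) and 0 without the filter and ranged from 0 to 24 without 1 library. The 3 genes lower became 1 under median-ratio scaling, with the replicate block and with 0.1 as pseudocount. They became 0 without the filter and under quantile normalization, and 5 at an adjusted p under 0.05. Both counts moved when 1 library was left out, as did the counts over all genes tested. Leaving out a library left an area with 1 sample, whose spread was assumed to be that of the other area. Apart from the filter, single libraries and the block, the causes were not tested.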

Other observations

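Among the genes numbered next to the histone genes in the table, 3 were chosen after their values were seen. The chaperonin gene GroL (JGI 482265), numbered next to H2A.Z, was at 179 and 174 FPKM in SII and at 69.4 and 80.1 FPKM in SIO and was called higher (log2 fold change 1.23, limma adjusted p = 0.00623). The gene numbered next to centromeric H3 (JGI 481783, whose descriptions disagree between a phosphofructokinase-type enzyme and an elongator complex protein) was at 31.8 and 53.4 FPKM in SII and at 133 and 130 FPKM in SIO and was not called (limma adjusted p = 0.0116). The H3 lysine 9 methyltransferase gene Clr4 (JGI 533509), numbered next to JGI 603592, was at 28.0 and 22.4 FPKM in SII and at 13.1 and 12.3 FPKM in SIO and was not called (limma adjusted p = 0.0199). What the numbering stands for was not given in the sources used here.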
